A study of Mus musculus with 8 samples.

Results

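Guanylate binding proteins are large GTPases of cell-intrinsic immunity, and Nlrc5 encodes the class I counterpart of the MHC class II transactivator. Of the 22878 gene symbols in the deposited tables, 8 were followed here across marrow progenitors: Gbp2, Gbp3, Gbp4, Gbp6, Gbp7, Gbp9, Gbp11 and Nlrc5. They were picked by symbol with results of these data already known, the difference between ChILP and CLP among them. Their values are therefore given as a description. Where the share of all genes called in a comparison is set beside the number of members called, the latter rests on the values that chose the members and supports nothing.

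The study sequenced polyadenylated RNA of 4 populations sorted from marrow of the inbred mouse strain C57BL/6, with 2 libraries each; no genetic change or treatment is named for any of them, and the labels used here name no ages. Common lymphoid progenitors (CLP) were sorted as live Lineage- CD127+ Flt-3+ Sca1+ c-Kit+ cells lacking integrin α4β7. A progenitor named common helper-like innate lymphoid progenitor, or ChILP, the stage from which helper innate lymphoid cells arise, was sorted as live Lineage- CD127+ integrin α4β7+ c-Kit+ cells lacking Flt-3 and T1/ST2. The PD-1+ non-LTi ILC progenitor and the CCR6+ LTi progenitor (LTi, lymphoid tissue inducer) were sorted from that same gate as PD-1+ CCR6- and PD-1- CCR6+ cells. CLP and ChILP were enriched by removing lineage-bearing cells, whereas PD-1+ and CCR6+ cells were first captured on a magnetic column by their integrin α4β7, so cell state and route of enrichment cannot be told apart when one pair of groups is set against the other. Nothing in the labels tells whether replicate libraries were made from different mice. All p-values below therefore rest on the variation between libraries, part or all of which may be technical.

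Interferon gamma, and to a lesser extent type I interferons, induce Gbp genes through transcription factors, IRF1 among them, that act at promoter elements known as the gamma-activated site (GAS) and the interferon-stimulated response element (ISRE). The proteins assemble on vacuoles and bacteria inside the cell and promote activation of the caspase-11 inflammasome. Nlrc5, itself induced by interferon gamma, is recruited by the RFX complex to promoters of MHC class I genes and of genes that load class I molecules with peptide.

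The mouse Gbp genes lie in 2 runs. By gene order in RefSeq's GRCm38.p6 annotation, chromosome 3 carries Gbp5, Gbp7, Gbp3, Gbp2b (named Gbp1 in the deposited tables) and Gbp2, and chromosome 5 carries Gbp8, Gbp9, Gbp4, Gbp10, Gbp6 and Gbp11; no other protein-coding gene lies within either run. Nlrc5 lies on chromosome 8. RefSeq lists Gbp11 as a transcribed pseudogene. RefSeq promoters, each of 300 bases with 250 before and 50 after the start, were matched for 3 of the 8 genes, Gbp2, Gbp3 and Gbp7, all on the plus strand of chromosome 3. They are shown because they are promoters of an interferon-induced family whose neighbours differed in level below. Capitals mark matches to an ISRE-like pattern (GAAA, any 2 bases, GAAA), searched on both strands and present here as its reverse complement, and to TTCNNNGAA, a GAS-like pattern that reads the same on both strands.
Gbp2, GRCm38.p6 chr3:142620413-142620712: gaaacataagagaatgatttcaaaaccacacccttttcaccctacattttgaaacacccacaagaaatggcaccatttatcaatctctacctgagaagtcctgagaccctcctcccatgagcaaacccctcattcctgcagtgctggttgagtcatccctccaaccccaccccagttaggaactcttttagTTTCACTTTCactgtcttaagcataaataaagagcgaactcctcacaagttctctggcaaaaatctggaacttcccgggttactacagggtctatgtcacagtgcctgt
Gbp3, GRCm38.p6 chr3:142559794-142560093: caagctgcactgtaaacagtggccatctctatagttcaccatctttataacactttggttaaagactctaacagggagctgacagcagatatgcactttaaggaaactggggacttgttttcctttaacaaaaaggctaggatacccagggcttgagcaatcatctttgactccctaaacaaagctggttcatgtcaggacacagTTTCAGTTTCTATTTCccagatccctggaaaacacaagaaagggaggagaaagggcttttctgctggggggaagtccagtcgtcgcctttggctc
Gbp7, GRCm38.p6 chr3:142530086-142530385: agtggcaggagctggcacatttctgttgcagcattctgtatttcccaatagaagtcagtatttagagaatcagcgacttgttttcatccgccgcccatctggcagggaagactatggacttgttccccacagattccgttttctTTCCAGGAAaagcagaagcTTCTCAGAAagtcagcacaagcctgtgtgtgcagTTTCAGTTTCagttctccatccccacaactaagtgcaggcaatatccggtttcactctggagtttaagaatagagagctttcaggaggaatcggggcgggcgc
Gbp2 held 1 ISRE-like match, whose first base stood at position -59 from the start. Gbp3 held 2 that share 4 bases, at positions -45 and -39, and a promoter at another start of Gbp3 held neither pattern. Gbp7 held an ISRE-like match at position -53 and GAS-like matches at positions -106 and -87. Of all 32851 RefSeq promoters of this length, 3.44% held the ISRE-like and 8.3% the GAS-like pattern. A match describes letters and is no evidence of binding.

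Libraries held 7685188 to 13997897 reads assigned to genes, and 13619 genes, all 8 members among them, passed the filter on low counts. Flt3 followed the sort, at 92.1 and 157 RPKM (reads scaled to transcript length and library total) in CLP and at 5.1 to 10.3 in the other 6 libraries. Kit was lower in CCR6+ than in CLP libraries without overlap (means 12.2 and 30.0 RPKM), although every gate took c-Kit+ cells. PD-1+ replicate 2 differed from replicate 1, with Pdcd1, which encodes PD-1, at 36.3 RPKM against 181, and Ccr6 at 8.11 against 0. Results that rest on PD-1+ replicate 2 are given with and without it. The CCR6+ libraries also differed in their own gate gene, Ccr6, with a mean of 53.9 RPKM and 84.2 in the higher library. Transcripts of mature cells differed by group. All 14 measured monocyte and macrophage markers were higher without overlap in PD-1+ and in CCR6+ than in CLP libraries, their summed level running from 769 to 1518 RPKM in CLP, 1195 to 1972 in ChILP, 7663 to 14891 in PD-1+ and 11871 to 16857 in CCR6+ cells; Marco was at 0 in both CLP libraries. The scale matters between these groups: the median log2 fold change of all tested genes was -0.02 for PD-1+ and -0.09 for CCR6+ against CLP after TMM scaling of the counts, but -0.26 and -0.36 on log2(RPKM + 1).

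Both ChILP libraries lay below both CLP libraries for the chromosome 5 Gbp genes, Gbp3 and Nlrc5, while Gbp2 and Gbp7 overlapped between the groups; edgeR with the filter on low counts called no member. In the sentences below, paired values are replicate 1 and replicate 2, levels are the deposited RPKM, and log2 fold changes with their SE come from edgeR's fit of the counts over all 8 libraries. In bulk samples, fewer cells of a type and less RNA per cell cannot be told apart.

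Gbp9 (NM_172777), a chromosome 5 member, measured 3.45 and 5.02 RPKM in the CLP libraries and 0.316 and 0.642 in the ChILP libraries. Both ChILP libraries lay below both CLP libraries, and the log2 fold change was -3.08 (SE 0.55). Gbp4 (NM_008620), a neighbour of Gbp9, measured 4.64 and 8.52 RPKM in the CLP libraries and 0.551 and 1.27 in the ChILP libraries. Again the groups did not overlap, with a log2 fold change of -2.78 (SE 0.54). Gbp6 (NM_194336) measured 3.49 and 7.31 RPKM in the CLP libraries and 0.558 and 1.08 in the ChILP libraries, a log2 fold change of -2.64 (SE 0.69) without overlap. Its reads are uncertain. Of the stretches of 50 bases, the read length, in its GENCODE M21 transcript, 90.2% also occur in the gene Gm43302 and 70.3% in another Gbp gene, chiefly Gbp10. That transcript has 2604 bases and the counted one 4316, so part of the counted transcript was not examined.

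Gbp11 (NM_001039647), the pseudogene at the end of the chromosome 5 run, was detected almost solely in CLP. Its levels were 2.90 and 3.05 RPKM in CLP, from 84 and 121 reads, and no read was counted in either ChILP library. A floor of 3 reads allows levels of up to 0.079 and 0.1 RPKM there, when scaled to the reads assigned to genes. The deposited RPKM rests on a larger library total, so on that scale the limits are somewhat lower. Over the group, Gbp11 was at least 90-fold lower in ChILP (3 reads over both libraries), or at least 39.8-fold without ChILP replicate 1 and at least 50.2-fold without ChILP replicate 2. Of its 50-base stretches, 19.2% occur in another gene.

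Nlrc5 (NM_001033207), which shares no 50-base stretch with another gene, measured 5.79 and 5.59 RPKM in the CLP libraries and 2.53 and 2.13 in the ChILP libraries. The spread within each group was small beside the gap between them, and the log2 fold change was -1.24 (SE 0.26), from -1.36 to -1.12 when each library was left out in turn.

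The 3 chromosome 3 members lay closer to their CLP levels. Gbp3 (NM_018734) measured 9.10 and 17.4 RPKM in the CLP libraries and 8.09 and 8.25 in the ChILP libraries. The groups were parted only by the gap between 8.25 and 9.10 RPKM, and the log2 fold change was -0.63 (SE 0.33), running from -0.97 without CLP replicate 1 to -0.17 without CLP replicate 2. Gbp2 (NM_010260), a GBP that is recruited to Toxoplasma vacuoles, measured 5.56 and 12.2 RPKM in the CLP libraries and 5.46 and 9.18 in the ChILP libraries, and Gbp7 (NM_145545) measured 11.2 and 13.7 against 12.1 and 6.80. Both genes overlapped between the groups, with log2 fold changes of -0.20 (SE 0.42) and -0.34 (SE 0.30) that changed sign without CLP replicate 2 or ChILP replicate 1 for Gbp2 and without ChILP replicate 2 for Gbp7. CLP replicate 2 was the higher CLP library for 7 of the 8 members, by up to 2.19-fold.

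**Figure D1:**
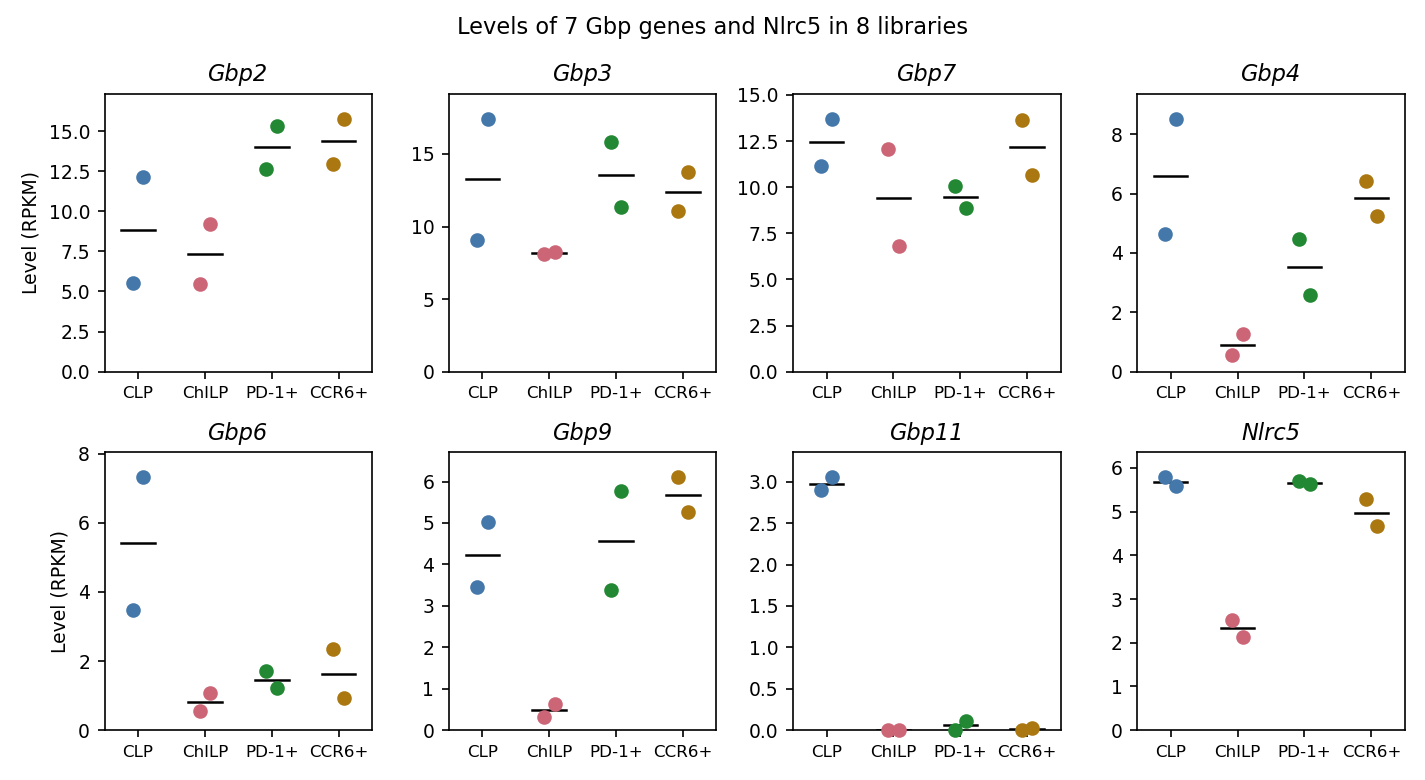
Deposited levels (RPKM, vertical axis, from 0 and on its own scale in each panel) of the 8 genes in each library of CLP, ChILP, PD-1+ and CCR6+ cells; points are libraries, replicate 1 to the left, and bars are means of 2. Gbp4, Gbp9 and Nlrc5 dip in ChILP, at 1.27, 0.642 and 2.53 RPKM at most, and Gbp11 lies at or near 0 outside CLP.

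Counted over the members, 6 of 8 (Gbp3, Gbp4, Gbp6, Gbp9, Gbp11 and Nlrc5) were lower in ChILP without overlap, where 18.6% of all tested genes were, and 0 of 8 were higher, where 17% were. Since this contrast was in view when the genes were picked, nothing is read from these shares or from the calls that follow. At an adjusted p under 0.05 (edgeR's quasi-likelihood test, Benjamini-Hochberg) 0 of 8 passed, where 0.022% of all genes did (3 genes). At an unadjusted p under 0.05, 5 of 8 were lower (Gbp4, Gbp6, Gbp9, Gbp11 and Nlrc5), where 3.03% of genes were, and DESeq2 called the same 5. The median log2 fold change was -1.94 for the 8 genes and 0.05 for all genes tested.

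Markers of the B cell and dendritic lineages moved beside this difference. Whether their transcripts came from the sorted progenitors or from other cells was not tested. Of 11 measured B cell and plasma cell markers, 9 were lower in ChILP without overlap (18.6% of all tested genes). The summed level of the 11 was 228 to 273 RPKM in CLP and 80.4 to 84.8 in ChILP. The summed level of 12 dendritic and plasmacytoid markers was 431 to 540 RPKM in CLP and 296 to 321 in ChILP. Among them is Flt3, a gene of the sort gates, with means of 124.5 RPKM in CLP and 7.72 in ChILP. In ChILP 5 of the 12, Flt3 included, were lower without overlap (18.6% of all tested genes) and 3 higher (17%). The part of these B cell, plasma cell, dendritic and plasmacytoid transcripts in the lower Gbp and Nlrc5 levels was not tested. The summed level of monocyte and macrophage markers overlapped between these groups.

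**Figure D2:**
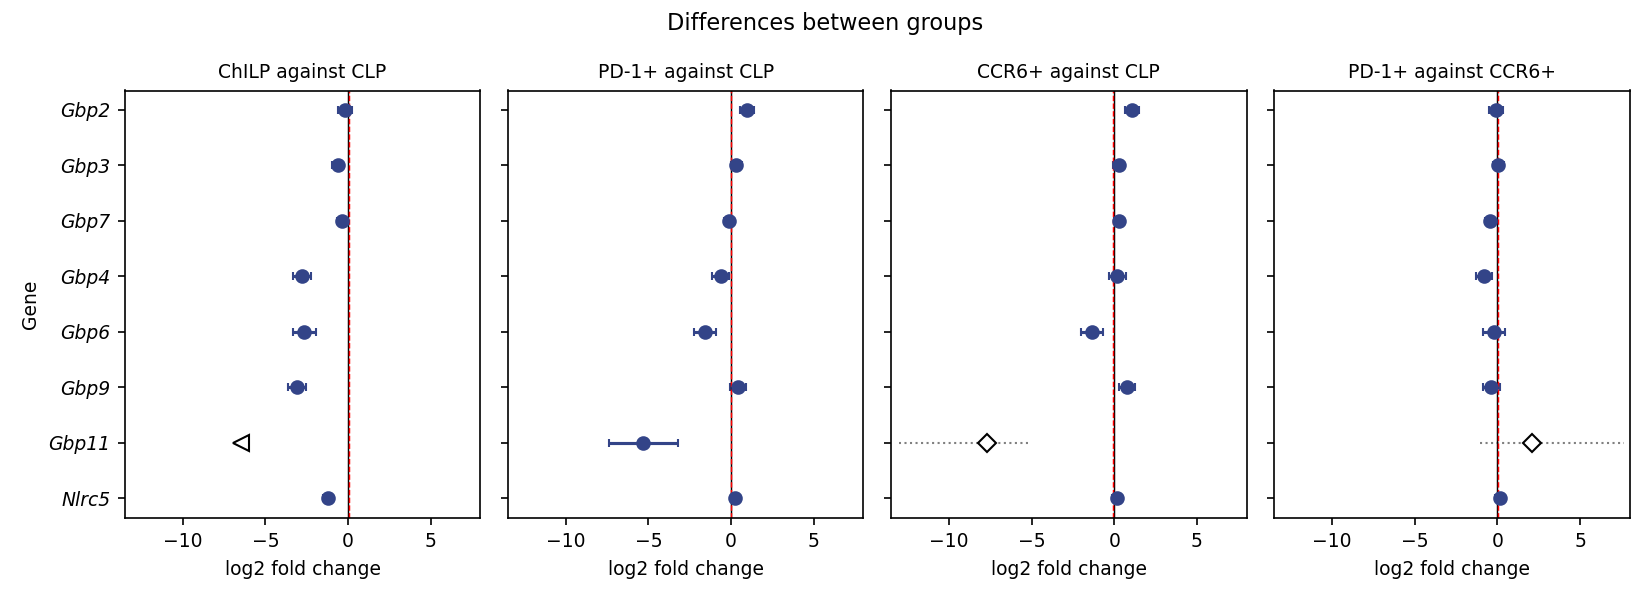
Log2 fold change (horizontal axis) of the 8 genes in 4 comparisons; filled points with bars are edgeR values ± SE, the open triangle is the bound for Gbp11 at a floor of 3 reads, and open diamonds with dotted lines are Gbp11 read ratios with 95% counting intervals. Dashed lines are the medians of all genes tested. In ChILP against CLP the points for Gbp4, Gbp6, Gbp9 and Nlrc5 sit between -3.08 and -1.24, whereas the first 3 rows stay within 1 unit of 0.

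The other Gbp genes were read beside the members. All 6 genes of the chromosome 5 run were lower in ChILP than in CLP without overlap, including the 2 that are no members: Gbp8 (NM_029509) measured 10.2 and 23.4 RPKM in the CLP libraries and 3.36 and 5.51 in the ChILP libraries, and Gbp10 (NM_001039646) measured 0.424 and 0.678 RPKM in the CLP libraries and 0.0621 and 0 in the ChILP libraries. Neither was called, with log2 fold changes of -1.84 (SE 0.83) and -3.95 (SE 2.50). Gbp10 shares 82.5% of its 50-base stretches with another gene, 79.2% with Gm43302 and 73.9% with another Gbp gene. Reads of Gbp10, Gbp6 and Gm43302 may therefore be divided among them. Gbp8, Gbp4 and Gbp9 share 21.2%, 12.8% and 9.56% of their stretches with another Gbp gene. The 6 genes of the run may thus not be fully separate measurements. Of the 4 chromosome 3 genes tested, Gbp3 was lower without overlap and the others overlapped. Gbp5 (NM_153564), which promotes inflammasome assembly, measured 0.619 and 1.58 RPKM in the CLP libraries and 0.580 and 1.76 in the ChILP libraries, a log2 fold change of 0.17 (SE 1.12). Gbp1 was at 0 in both groups and was not tested. Whether the runs differ from each other was not tested, since the members were picked with these values in view.

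**Figure D3:**
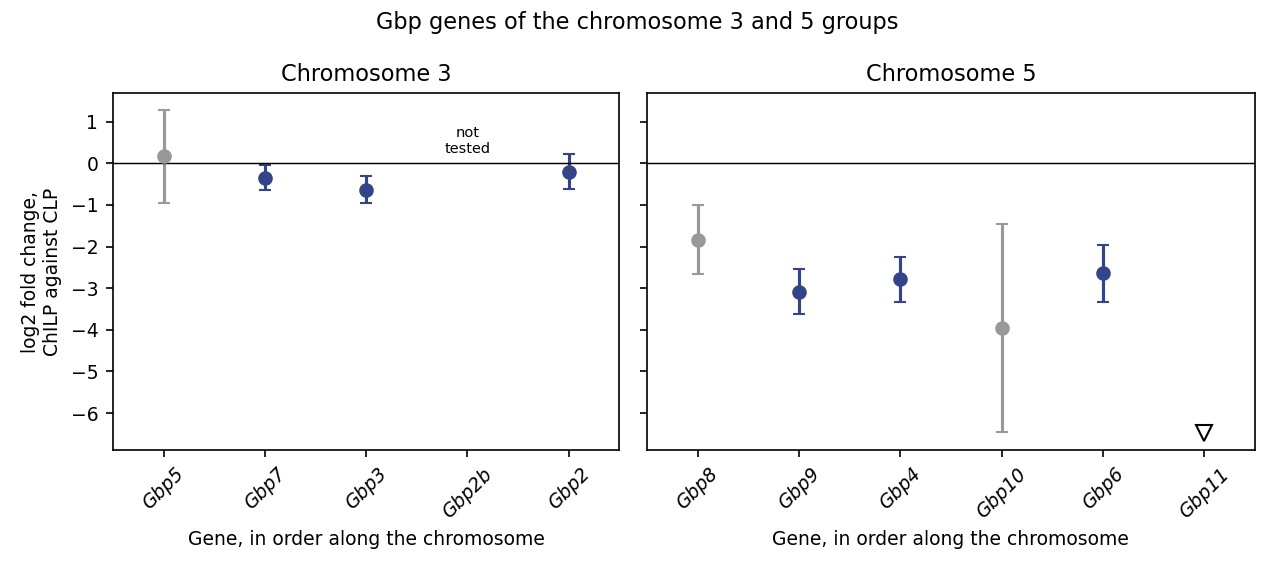
Log2 fold change of ChILP against CLP (vertical axis, ± SE from edgeR) for the Gbp genes in their order along chromosomes 3 and 5, not to scale; blue points are members, grey points other Gbp genes, and the open triangle is the Gbp11 bound. The chromosome 3 genes lie between -0.63 and 0.17, and the chromosome 5 genes at -1.84 or below.

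PD-1+ and CCR6+ cells are subsets of the ChILP gate, yet most of the members stood higher in both than in ChILP. These libraries were set beside ChILP after the data had been seen, by their levels alone and with no fit, and the route of enrichment differs. Gbp9 stood at 3.37 and 5.76 RPKM in PD-1+ cells and 6.10 and 5.27 in CCR6+ cells, means 9.53 and 11.9 times that of ChILP. Gbp4 stood at 4.47 and 2.59 RPKM in PD-1+ cells and 6.42 and 5.26 in CCR6+ cells, 3.87 and 6.4 times ChILP. For both genes every one of the 4 libraries lay above both ChILP libraries. Nlrc5 stood at 5.70 and 5.64 RPKM in PD-1+ cells and 5.29 and 4.66 in CCR6+ cells, 2.43 and 2.14 times ChILP, with little spread within either group.

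The chromosome 3 genes and Gbp6 stood at smaller ratios to ChILP than Gbp9, Gbp4 and Nlrc5. Gbp2 stood at 12.6 and 15.3 RPKM in PD-1+ cells and 13.0 and 15.8 in CCR6+ cells, 1.91 and 1.96 times ChILP and without overlap. Gbp3, at 15.8 and 11.4 in PD-1+ cells and 11.1 and 13.7 in CCR6+ cells, was 1.66 and 1.52 times ChILP. Gbp7, at 10.1 and 8.89 and at 13.7 and 10.6 RPKM, overlapped ChILP in both. Gbp6 stood at 1.71 and 1.21 RPKM in PD-1+ cells and 2.34 and 0.922 in CCR6+ cells, 1.78 and 1.99 times ChILP; PD-1+ cells did not overlap ChILP, whereas CCR6+ replicate 2 lay below ChILP replicate 2. Gbp11 was counted in 5 reads of PD-1+ replicate 2 and 1 read of CCR6+ replicate 2, with 0 in the other replicates.

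In all, 6 of 8 members were higher without overlap in PD-1+ than in ChILP cells, where 17.7% of tested genes were, and 5 of 8 in CCR6+ cells, where 19.2% were; 0 were lower, against 35.6% and 43.7% of genes. With PD-1+ replicate 1 alone the count was also 6 of 8, where 32.3% of genes lay above both ChILP libraries. Gbp3, Gbp4, Gbp9 and Nlrc5 had both ChILP libraries below the 6 others, which held for 3.42% of tested genes (466). Monocyte and macrophage transcripts were several times higher in the magnetically captured libraries, as given above, as was the sum of B cell and plasma cell markers, at 520 to 915 RPKM in PD-1+ and 659 to 889 in CCR6+ cells. Much of that sum was Igj, at up to 603 and 543 RPKM. Against CLP, 7 of the 11 B cell and plasma cell markers were higher without overlap and 2 lower in PD-1+ (18.6% and 38.7% of all tested genes), and 7 and 4 in CCR6+ cells (19.8% and 45.7%). The part of these monocyte, macrophage, B cell and plasma cell transcripts in the higher Gbp levels was not tested.

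Against CLP, the captured populations were split by gene: Gbp2 stood higher, Gbp11 and Gbp6 lower, and the log2 fold changes of the others lay between -0.63 and 0.77. The 2 comparisons share the CLP libraries and are not independent. Gbp2 lay above both CLP libraries in all 4 captured libraries, with log2 fold changes of 0.96 (SE 0.42) in PD-1+ and 1.05 (SE 0.42) in CCR6+ cells, of 1.54 and 1.63 without CLP replicate 2 and of 0.55 and 0.64 without CLP replicate 1; without PD-1+ replicate 2 the PD-1+ value was 0.73. Gbp9 had values of 0.41 (SE 0.50) and 0.77 (SE 0.51), overlapping CLP in PD-1+ and above it in CCR6+ cells; without PD-1+ replicate 2 the former was -0.12. Gbp3 had 0.31 and 0.26 (SE 0.33 each), overlapping CLP in both.

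Gbp11 was lower than in CLP in every captured library. Its log2 fold change was -5.30 (SE 2.09) in PD-1+ cells, where without replicate 2 no read remains, and its pooled read rate in CCR6+ cells was lower than in CLP by a ratio of 207 (95% counting interval 36.8 to 8230). Gbp6 had log2 fold changes of -1.60 and -1.37 (SE 0.67 each), without overlap in either comparison. Both lie at the same end of the chromosome 5 run. Gbp4 had -0.63 and 0.18 (SE 0.50 each), Gbp7 -0.12 and 0.31 (SE 0.30 each), and Nlrc5 0.26 and 0.14 (SE 0.26 each). On log2(RPKM + 1), which is not corrected for the shift of the typical gene, the signs of Gbp3, Gbp4 and Gbp7 in CCR6+ cells and of Nlrc5 in both turned, so no direction is given for these. In PD-1+ cells Gbp4 and Gbp7 lay below both CLP libraries and kept a negative value under every alternative, from -0.99 to -0.21 and from -0.38 to -0.04.

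At an adjusted p under 0.05, edgeR called 0 of 8 members in PD-1+ against CLP, where 7.31% of genes were called, and 0 of 8 in CCR6+ against CLP, where 11.4% were. At an unadjusted p under 0.05, Gbp6 and Gbp11 were lower in PD-1+ cells (11.4% of genes), and in CCR6+ cells Gbp2 was higher (13.8%) and Gbp11 lower (13.7%). DESeq2 called Gbp11 in both. In RPKM, 1 member was higher than CLP without overlap in PD-1+ (18.6% of genes) and 4 were lower (38.7%); in CCR6+ cells 2 were higher (19.8%) and 3 lower (45.7%). With PD-1+ replicate 1 alone, 1 was higher (31.4%) and 5 lower (48%). The median over the members was 0.07 in PD-1+ and 0.22 in CCR6+ cells, beside -0.02 and -0.09 for all genes.

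PD-1+ and CCR6+ cells, which share their route of enrichment, differed little in these genes. Gbp4 had the largest log2 fold change of PD-1+ against CCR6+ among the members other than Gbp11, -0.81 (SE 0.50), and was lower in PD-1+ without overlap, as was Gbp7 at -0.43 (SE 0.30). Gbp9 had -0.36 (SE 0.50), or -0.89 without PD-1+ replicate 2. Nlrc5, at 0.13 (SE 0.26), was higher in PD-1+ without overlap by the gap between 5.29 and 5.64 RPKM. Gbp11, at 5 reads against 1, had a ratio of 4.22 with a counting interval of 0.472 to 200, so that no difference was detectable at this depth.

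Thus 1 of 8 was higher without overlap, where 19% of genes were, and 2 of 8 lower, where 14.2% were. With PD-1+ replicate 1 alone, 2 were higher (43.2% of genes) and 4 lower (31%). None of the 8 passed at an adjusted p under 0.05 by edgeR, where 0% of all genes did, nor at an unadjusted p under 0.05, where 4.08% of genes were higher and 1.81% lower, and DESeq2 called none of them. Gbp1 was counted only in CCR6+ cells, at 0.431 and 0.170 RPKM from 20 reads in all, which is at least 7.9-fold above PD-1+ cells at a floor of 3 reads over the group; it failed the filter and was not tested.

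The ligand and receptor upstream of the Gbp genes were read in the same libraries, from lists chosen with earlier results of these data known. Ifng, which encodes interferon gamma, was at 0.0774 and 0 RPKM in CLP, 0.998 and 0 in ChILP, 4.33 and 0.969 in PD-1+ cells and 0.388 and 3.47 in CCR6+ cells. Replicates of each group differed several-fold, all 22 reads of ChILP coming from replicate 1, and against the single read in CLP the pooled ratios were 16.7 (95% counting interval 2.7 to 689), 79.3 (13.9 to 3165) and 65.2 (11.3 to 2616). The receptor chain Ifngr1 measured 111 and 135 RPKM in the CLP libraries and 143 and 105 in the ChILP libraries, a log2 fold change of 0.07 (SE 0.21). Its partner Ifngr2, at 21.1 and 25.1 against 21.9 and 17.9, had -0.16 (SE 0.35). In CCR6+ cells both rose over CLP, by log2 fold changes of 0.80 (SE 0.21, adjusted p = 0.0471 in edgeR's quasi-likelihood test) and 1.71 (SE 0.36, adjusted p = 0.0239), as did the kinase Tyk2. Of all tested genes, edgeR called 11.4% in CCR6+ and 7.31% in PD-1+ cells against CLP, in either direction. Of 7 tested receptors and kinases, these 3 were called higher in CCR6+ and 0 in PD-1+ cells; without either CLP library or CCR6+ replicate 1 none of the 3 was called, and without CCR6+ replicate 2 Tyk2 alone was.

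Some of the factors that carry the signal rose in the captured cells. None was called between CLP and ChILP, where edgeR called 3 of 13619 genes (0.022%). A count of 0 there tells little about any list. Irf1, which acts at Gbp promoters, measured 32.9 and 61.2 RPKM in the CLP libraries and 27.1 and 33.5 in the ChILP libraries, a log2 fold change of -0.56 (SE 0.29), and was called nowhere. Of 16 tested signalling factors, edgeR called 0 in ChILP, 3 higher in PD-1+ (Stat3, Irf5 and Irf7) and 6 higher in CCR6+ cells against CLP, Irf7 and Irf8 among them. Over all tested genes, 7.31% were called in PD-1+ and 11.4% in CCR6+ cells, in either direction. Irf7, a factor of the type I response, had log2 fold changes of -0.54 (SE 0.27) in ChILP, 1.81 (SE 0.27, adjusted p = 0.0142 by edgeR) in PD-1+ and 2.33 (SE 0.28, adjusted p = 0.00682) in CCR6+ cells. Without CLP replicate 2 none of the 16 was called in either, and without CLP replicate 1 Irf5 alone was called in PD-1+ cells. Without PD-1+ replicate 2 the calls in PD-1+ cells were Irf5, Irf7 and Socs1, and in CCR6+ cells 2 to 3 factors were called without CLP replicate 1 or either CCR6+ replicate, Irf5 and Irf7 each time.

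The immunity-related GTPases are the companions of GBPs at vacuoles, and 0 of 13 tested were called in any comparison. Against CLP, 0.022% of all tested genes were called in ChILP, 7.31% in PD-1+ and 11.4% in CCR6+ cells. Igtp measured 24.5 and 22.3 RPKM in the CLP libraries and 62.5 and 14.3 in the ChILP libraries, and Irgm1 at 38.8 and 34.3 against 38.9 and 26.4, both overlapping. Irgm2, at 4.92 and 7.84 against 8.91 and 4.24 RPKM, overlapped too. Iigp1, Tgtp1 and Gm12250 were lower in ChILP without overlap, among 5 of the 13 (18.6% of all tested genes), and 1 of the 13 was higher (17%). Iigp1 measured 2.42 and 4.84 RPKM in the CLP libraries and 1.1 and 0.498 in the ChILP libraries, a log2 fold change of -2.10 (SE 0.72, adjusted p = 0.677 by edgeR).

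Of 35 tested genes of the type I response, edgeR called 0 in ChILP, 7 higher in PD-1+ and 14 higher in CCR6+ cells against CLP. The shares of all tested genes called in either direction were 0.022%, 7.31% and 11.4%. In ChILP 17 were lower without overlap (18.6% of all tested genes) and 0 higher (17%), with a median of -0.41. Isg15, an antiviral ubiquitin-like protein, stood at 21 and 12.7 RPKM in CLP, 21.7 and 10.5 in ChILP, 90.1 and 85.8 in PD-1+ cells and 113 and 109 in CCR6+ cells. It overlapped between CLP and ChILP and rose over CLP in PD-1+ and CCR6+ cells, by log2 fold changes of 2.64 (SE 0.42, adjusted p = 0.0156 by edgeR) and 3.03 (SE 0.42, adjusted p = 0.00866). Of 20 tested genes listed as induced by interferon gamma, 0 were called in ChILP (median 0.25), 4 higher in PD-1+ and 7 higher in CCR6+ cells. Without overlap, 6 of the 20 were higher in ChILP than in CLP (17% of all tested genes) and 3 lower (18.6%). Cd74, the invariant chain of MHC class II, had the largest changes among those called, with log2 fold changes of 4.69 (SE 0.49, adjusted p = 0.0076 by edgeR) and 5.44 (SE 0.51, adjusted p = 0.00471), and Nos2 and Ido1, effectors of activated macrophages, were listed at 0 in all libraries. Without CLP replicate 2 the calls fell to 0 and 0 in the type I list, and to 0 and 1 (Cd74) in the interferon gamma list; without PD-1+ replicate 2 they were 5 and 3 in PD-1+ cells. In CCR6+ cells the type I calls numbered 6 to 8 without CLP replicate 1 or either CCR6+ replicate, and the interferon gamma calls 4 without CCR6+ replicate 2.

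**Figure D4:**
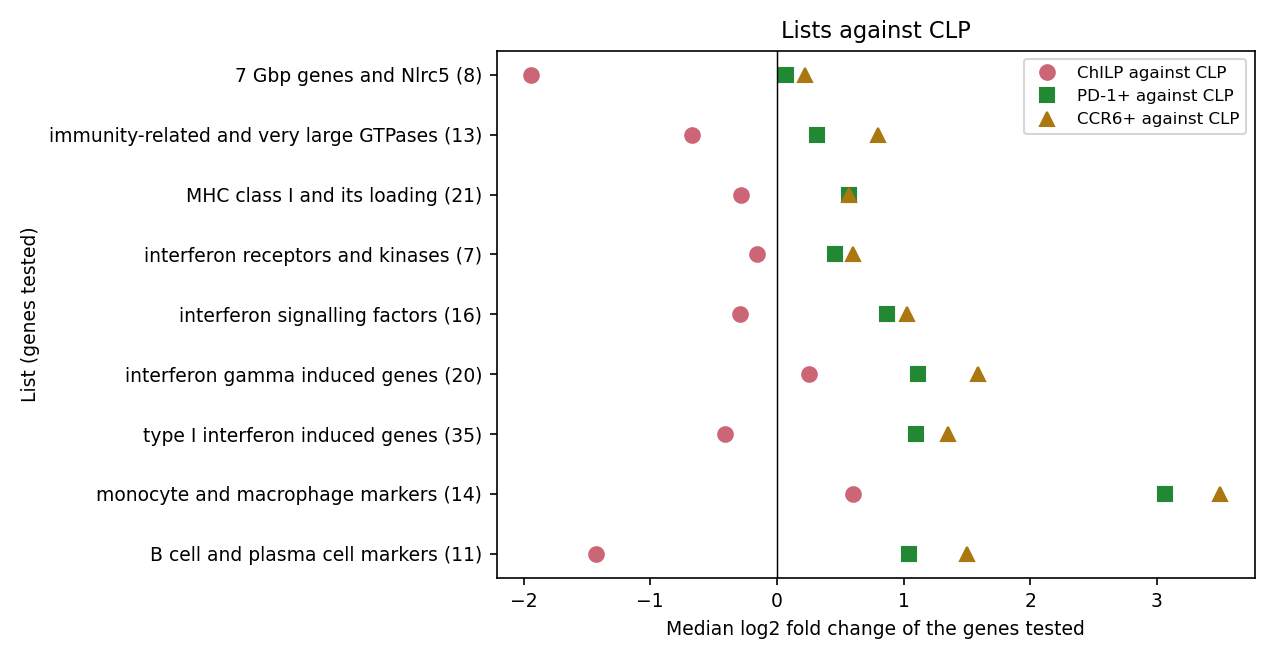
Median log2 fold change against CLP (horizontal axis) of the genes tested in each list, for ChILP (circles), PD-1+ (squares) and CCR6+ cells (triangles); the number of genes tested stands beside each list. The 8 members have medians of -1.94, 0.07 and 0.22, and the type I list -0.41, 1.1 and 1.35. No list was tested as a set.

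No gene of the class I pathway that Nlrc5 is known to drive passed the test between CLP and ChILP, where 0.022% of all tested genes did. Of 21 tested genes of the MHC class I list (1 of which, H2-Ke6, is a metabolic enzyme of the MHC region), 0 were called in ChILP. Without overlap, 10 were lower (18.6% of all tested genes) and 0 higher (17%), with a median of -0.28 beside -1.24 for Nlrc5. H2-K1, a classical class I heavy chain, measured 821 and 1194 RPKM in the CLP libraries and 720 and 712 in the ChILP libraries, -0.43 (SE 0.19). B2m, the class I light chain, stood at 1813 and 1995 against 1703 and 1971, 0.01 (SE 0.18), and H2-D1 measured 817 and 1174 against 853 and 796, -0.21 (SE 0.24). The 2 groups overlapped for both of these genes. The peptide transporter gene Tap1 (75.7 and 107 against 61.7 and 66.8 RPKM, -0.44, SE 0.26) and the immunoproteasome subunit Psmb9 (179 and 223 against 147 and 153, -0.36, SE 0.18) did not overlap, whereas Psmb8 (368 and 639 against 334 and 405, -0.37, SE 0.27) did. Copies within the class I family share reads, so values of single heavy chains are uncertain.

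In the captured cells, where the direction of Nlrc5 against CLP turned with the scale, part of the class I list was above CLP. EdgeR called H2-D1, B2m and Tapbp higher in PD-1+ and these 3 with H2-Q10, H2-T23 and H2-T24 higher in CCR6+ cells, of 21 tested, and 0 lower. Of all tested genes, 7.31% and 11.4% were called in either direction. In RPKM, 10 genes of the list were higher than CLP without overlap in PD-1+ (18.6% of all tested genes) and 0 lower (38.7%). In CCR6+ cells 10 were higher (19.8%) and 5 lower (45.7%): Tap1, Tap2, Psmb9, Erap1 and H2-Ke6. On the scaled counts Psmb9, at 0.1 (SE 0.18), and H2-Ke6, at -0.0 (SE 0.27), showed no drop, and Erap1 had -0.34 (SE 0.28). Tap2, the other transporter chain and named after its values were seen, had a log2 fold change of -1.18 (SE 0.35, adjusted p = 0.0678 by edgeR). B2m stood at 2667 and 2529 RPKM in PD-1+ cells and 2553 and 2627 in CCR6+ cells, log2 fold changes of 0.72 (SE 0.18, adjusted p = 0.0483 by edgeR) and 0.78 (SE 0.18, adjusted p = 0.0298). H2-D1, at 1634 and 1951 and at 1662 and 2168 RPKM, had 1.14 (SE 0.24, adjusted p = 0.0318 by edgeR) and 1.29 (SE 0.24, adjusted p = 0.0176). Tap1 and Psmb8 were not called in either, at 0.03 (SE 0.26) and 0.07 (SE 0.27) in PD-1+ and -0.19 (SE 0.26) and -0.26 (SE 0.27) in CCR6+ cells. Without either CLP library no gene of the list was called, nor without PD-1+ replicate 2 in PD-1+ cells; in CCR6+ cells H2-D1 was the 1 gene called without CCR6+ replicate 1 and H2-T23 the 1 called without CCR6+ replicate 2.

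Relatives of Nlrc5 were read as well. Against CLP, edgeR called 0.022% of all tested genes in ChILP, 7.31% in PD-1+ and 11.4% in CCR6+ cells. Ciita, the class II transactivator, stood at 0.462 and 0 RPKM in CLP, 0.709 and 1.34 in ChILP, 4.96 and 9.44 in PD-1+ cells and 17.4 and 8.74 in CCR6+ cells, with its lowest levels in CLP, whereas those of Nlrc5 were in ChILP. It rose over CLP by log2 fold changes of 5.30 (SE 1.21, adjusted p = 0.0407 by edgeR) and 6.20 (SE 1.25, adjusted p = 0.022). Of the other 7 genes of the MHC enhanceosome list, which holds the RFX and NF-Y subunits that recruit both transactivators, 0 were called in any comparison over all 8 libraries; Rfxap was called lower in PD-1+ against CLP without PD-1+ replicate 2. Of 14 tested NOD-like receptors other than Nlrc5, Nod1, a sensor of bacterial cell wall, was the only one called, at 1.93 (SE 0.38, adjusted p = 0.0265 by edgeR) in PD-1+ and 1.99 (SE 0.38, adjusted p = 0.0187) in CCR6+ cells. Of 8 inflammasome genes that act downstream of GBPs, 0 were called in ChILP, while Gsdmd, the pore protein of pyroptosis, rose in PD-1+ (0.97, SE 0.21, adjusted p = 0.0318 by edgeR) and in CCR6+ cells (1.21, SE 0.21, adjusted p = 0.0134), and Il1b rose in CCR6+ cells (3.71, SE 0.89, adjusted p = 0.0359). Each of these calls was lost without CLP replicate 2. In PD-1+ cells the calls of Ciita, Nod1 and Gsdmd were also lost without PD-1+ replicate 2, those of Ciita and Gsdmd without PD-1+ replicate 1, and that of Gsdmd without CLP replicate 1. In CCR6+ cells Ciita was lost without CCR6+ replicate 1, Gsdmd without CCR6+ replicate 2 or CLP replicate 1, Nod1 without either CCR6+ replicate, and Il1b without any one of the 4 libraries compared. The higher calls of this and the preceding lists came from the libraries with more monocyte and macrophage transcripts, Lyz2 standing at 356 to 866 RPKM in CLP and 6387 to 14677 in the captured cells. The same libraries held more B cell and plasma cell transcripts, as given above. T cell and NK cell marker sums were 20.8 to 23.6 RPKM in CLP, 95.4 to 99.6 in PD-1+ and 88.7 to 107 in CCR6+ cells. Of the dendritic and plasmacytoid markers, Siglech, Bst2, Irf8 and Cd209a were called higher and Flt3 lower in CCR6+ cells, and Flt3 alone, lower, in PD-1+ cells. The part of any of these transcripts was not tested.

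Among genes with at least 10 RPKM in 1 group, those whose log2(RPKM + 1) over the 8 libraries most resembled the centred mean of the 8 members were Cd72 (Pearson r = 0.973), Uvrag (0.969), Ptp4a3 (0.964), Ly6d (0.95) and Camk2d (0.947), out of 6911 candidates. These r values describe 8 libraries that share their groups and depth and carry no p. Cd72, a receptor of B lineage cells, stood at 29.7 and 59 RPKM in CLP, 13.3 and 12.4 in ChILP, 34.5 and 27.7 in PD-1+ cells and 30.7 and 25.9 in CCR6+ cells, the same dip in ChILP. For single members, the nearest gene was Uvrag for Gbp4 (0.991), 2010001M09Rik for Gbp9 (0.964), Snx29 for Gbp6 (0.973), Emp1 for Gbp11 (0.993), Camk2d for Nlrc5 (0.958), Osbpl9 for Gbp2 (0.988), Exoc2 for Gbp3 (0.957) and Cenpt for Gbp7 (0.932). Emp1, a membrane protein, was arranged as Gbp11 was, at 10.1 and 14.2 RPKM in CLP and 0.177 to 0.706 in the other 6 libraries. No member was the nearest gene of another member.

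Ordered by mean level per transcript length, Gbp3 stood highest in CLP (13.3 ± 5.9 RPKM, SD, n = 2), Gbp7 and Gbp2 next, and Gbp11 lowest (2.98 ± 0.11), and neighbours in that order from Gbp3 to Gbp9 overlapped. In ChILP the order was steeper: Gbp7, Gbp3 and Gbp2 stood between 5.46 and 12.1 RPKM, Nlrc5 between 2.13 and 2.53, and Gbp4, Gbp6 and Gbp9 at 1.27 or less. The 3 chromosome 3 genes thus overlapped each other and lay above Nlrc5, which lay above the 4 chromosome 5 members without overlap in ChILP. In PD-1+ and in CCR6+ cells the same 3 genes led at 8.89 RPKM or more. Nlrc5, Gbp9 and Gbp4 followed, in that order in PD-1+ and in the reverse order in CCR6+ cells, each overlapping its neighbour. Gbp6 lay below all of those at 2.34 RPKM or less.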

How the data were processed

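For every library the authors deposited a table of 29257 RefSeq transcripts holding whole-number read counts and RPKM values. Per the deposited values, RPKM is the count scaled by transcript length and library total alone. Per the labels, libraries were made with Smart-seq2 from sorted cells and read at 50 bp. CASAVA 1.8.4, Bowtie2 2.2.2 and build mm9 appear in the submitters' processing notes; how reads were counted, by strand or when shared, is not given in the sources used here. The reads carry no molecular identifiers here, so intervals and floors cover counting error only.

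Each symbol was represented by its transcript with the largest mean count, which is also the longest for all 8 members. The quasi-likelihood F test of edgeR 4.0.16 (R 4.3.3) was applied to the counts (TMM scaling, robust, two-sided, filterByExpr at 10 counts, Benjamini-Hochberg over 13619 genes) with all 4 groups in 1 fit, checked on simulated data; 4 residual degrees of freedom were left, at a common biological coefficient of variation of 0.526. Where a group had no read, a bound against 3 reads is given, and where it had 1 to 3, a ratio of pooled read rates with an exact (Clopper-Pearson) 95% interval. Levels did not overlap where every library of one group lay above every library of the other.

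The members and gene lists were chosen with earlier results of these data known. Named beyond the members were up to 4 called genes and up to 3 of the most abundant of a list, a fixed set of interferon and MHC genes, and genes of like pattern; Iigp1, Tgtp1, Gm12250 and the H2-Ke6 remark were chosen after values were seen. One named gene is not reported here. The levels set beside ChILP, the member counts without PD-1+ replicate 2 and the list calls without each library were added after seeing the data. Lists also covered granulocyte, erythroid, mast cell, T cell and NK cell, CLP, ILC progenitor and LTi markers. Alternatives were DESeq2 1.42.0 and its size factors, limma 3.58.1 on log2(RPKM + 1) and log2(RPKM + 0.1), other filters, 4 libraries alone, a replicate block, the longest transcript and leaving out each library. Sequences come from RefSeq (GRCm38.p6) and shared stretches from GENCODE M21.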

Additional observations from a re-analysis of the deposited data

How the results depend on the processing

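In ChILP against CLP, Gbp3, Gbp4, Gbp6, Gbp9, Gbp11 and Nlrc5 kept a negative log2 fold change under every alternative that kept the gene; a minimum of 5 RPKM removed Gbp6 and Gbp11. The sign held throughout for 3 of 8 members in PD-1+ against CCR6+, 5 in PD-1+ against CLP and 4 in CCR6+ against CLP. Whether members were called depended on the tool: DESeq2 called 5 in ChILP against CLP, and edgeR without a filter called Gbp4 and Gbp9. Gbp11 was called in PD-1+ against CLP by DESeq2 and limma on log2(RPKM + 1), and in CCR6+ against CLP by DESeq2, both limma fits and edgeR on 4 libraries alone. Depth limits Gbp11, Gbp10 and Gbp1, which rest on few reads outside 1 group.

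Counts over all genes moved more, and the cause was not tested. In ChILP against CLP, 3 genes became 0 with DESeq2's size factors, 263 with DESeq2, 55 and 46 with limma on log2(RPKM + 1) and log2(RPKM + 0.1), 63 without a filter, 15 at 5 RPKM and 59 with 4 libraries alone, and 0 to 51 when each library was left out. In PD-1+ against CCR6+, 0 became 128 with DESeq2 and 2 with limma on log2(RPKM + 1), and 0 to 36 when each library was left out, the 36 without PD-1+ replicate 2. In PD-1+ against CLP, 995 (609 higher, 386 lower) became 2301 with DESeq2, 2147 (735 and 1412) and 1870 (655 and 1215) with the 2 limma fits, 208 with 4 libraries alone and 8 to 995 when each library was left out: 586 without PD-1+ replicate 2, 518 without CLP replicate 1 and 8 when CLP replicate 2 was left out. In CCR6+ against CLP, 1549 (897 and 652) became 2750 with DESeq2, 3114 (964 and 2150) and 2797 (861 and 1936) with limma, and 83 to 1930 when each library was left out: 83 without CLP replicate 2, 459 without CCR6+ replicate 1, 655 without CCR6+ replicate 2 and 770 without CLP replicate 1.

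With a replicate block, 0 genes were called in ChILP against CLP and in PD-1+ against CCR6+, 632 in PD-1+ against CLP and 1153 in CCR6+ against CLP. The differences between replicates correlated by 0.094, 0.08, -0.081 and -0.009 over 13619 genes in these comparisons, in the order ChILP against CLP, PD-1+ against CCR6+, PD-1+ against CLP and CCR6+ against CLP. Correlations over all genes cannot decide whether libraries of like number share mice or batches, which was not tested. Granulocyte marker sums moved alike by number in CLP (10731 and 7078 RPKM) and ChILP (14412 and 8360). They also did so in PD-1+ (10482 and 21308) and CCR6+ libraries (13242 and 22413). Monocyte and macrophage sums moved alike by number in both pairs, at 1518 and 769 (CLP), 1972 and 1195 (ChILP), 7663 and 14891 (PD-1+) and 11871 and 16857 RPKM (CCR6+). Erythroid and megakaryocyte sums did so in CLP (6761 and 3017) and ChILP (9567 and 3395). They did not in PD-1+ and CCR6+ libraries (29262 and 33938 against 42224 and 34702). T cell and NK cell sums, and dendritic and plasmacytoid sums, moved alike in neither pair.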

Other observations

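Socs1, a feedback inhibitor of interferon signalling, was arranged unlike the Gbp genes. It stood at 15.6 and 33.0 RPKM in CLP, 67.6 and 96.6 in ChILP, 145 and 38.2 in PD-1+ cells and 26.2 and 23.5 in CCR6+ cells. It was named after its values were seen. Its log2 fold change in ChILP against CLP was 1.83 (SE 0.56, adjusted p = 0.521 by edgeR) and in PD-1+ against CLP 2.17 (SE 0.57, adjusted p = 0.0589), higher without overlap in both and called in neither over all 8 libraries; without PD-1+ replicate 2 it was called higher in PD-1+ against CLP.

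Summed marker levels place the libraries beside these values. CLP markers summed to 989 to 1715 RPKM in CLP, 94.5 to 120 in ChILP, 42.4 to 106 in PD-1+ and 37 to 50.8 in CCR6+ cells. ILC progenitor markers summed to 65.7 to 75.1, 471 to 828, 456 to 1755 and 218 to 316 RPKM in the same order, and LTi markers to 44 to 58, 175 to 346, 286 to 588 and 324 to 509. Much of the LTi sum was Ltb, at up to 494 RPKM in PD-1+ and 363 in CCR6+ cells. Of 8 LTi markers, 5 were lower in PD-1+ than in CCR6+ cells without overlap (14.2% of all tested genes) and 0 higher (19%). Their median log2 fold change was -1.87. T cell and NK cell markers summed to 20.8 to 23.6, 18.7 to 20.7, 95.4 to 99.6 and 88.7 to 107 RPKM, and erythroid and megakaryocyte markers to 3017 to 6761, 3395 to 9567, 29262 to 33938 and 34702 to 42224. Granulocyte markers summed to 7078 to 10731, 8360 to 14412, 10482 to 21308 and 13242 to 22413 RPKM, and mast cell and basophil markers to 731 to 778, 390 to 1065, 805 to 2082 and 1170 to 2392. Such sums hid opposite moves within lists. Of 14 granulocyte markers, 9 (PD-1+) and 10 (CCR6+) lay above CLP without overlap (18.6% and 19.8% of all tested genes). In each, 3 lay below (38.7% and 45.7%). Mean Mpo fell from 2968 RPKM (CLP) to 321 (PD-1+) and 429 (CCR6+), while mean S100a8 rose from 1263 to 7383 and 8018. Much of the erythroid sum was Hba-a1, at up to 25445 (PD-1+) and 30607 RPKM (CCR6+), but mean Car1 fell from 436 (CLP) to 95.8 and 119.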
